A study of Mus musculus with 4 samples.

Results

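The genes of the proteasome were followed in brown adipose tissue (BAT) of transgenic mice in which the integrated stress response (ISR) had been switched on for 12 h. Members were chosen by name: every probe whose accession belongs to a mouse gene called Psma, Psmb, Psmc, Psmd, Psme, Psmf or Psmg with a number. The rule took 61 of 55681 probes and 50 of 20145 named genes. Of the 50 genes, 48 encode proteasome subunits, activators, an inhibitor or assembly chaperones. The other 2 only share the name: Psmc3ip, a factor of meiotic recombination, and Psme3ip1, a partner protein of the activator Psme3. The 3 genes of the immunoproteasome, Psmb8, Psmb9 and Psmb10, are described apart.

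All 4 mice were male, 8 weeks old, on the C57/BL6N background and carried the maP2::Fv2E-PERK transgene. Its product is the kinase domain of PERK, one of the kinases that phosphorylate eIF2α, fused to a domain that dimerizes with the ligand AP20187 (AP). The promoter of Fabp4 (aP2) drives it in fat, and that promoter is also known to be active in macrophages. One group of 2 Tg mice received AP by intraperitoneal injection, at 1 ng/g by the sample labels (a legend of the study gives another, higher dose), and the other group of 2 received vehicle. No mouse without the transgene was on the arrays, so the comparison is AP-treated against vehicle-treated Tg mice.

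The proteasome is the barrel-shaped protease that degrades proteins tagged with ubiquitin. Its 20S core is a stack of alpha rings, which gate the entry, and beta rings, which hold the protein-cutting sites, and the 19S particle docks on it to recognise, unfold and feed in substrates. Cells can replace the cutting subunits with inducible ones (the immunoproteasome, known from antigen presentation) or dock other activators in place of the 19S particle. Brown fat is known to depend on a high proteasome capacity, kept up by the transcription factor Nfe2l1, and the transcription factor Atf4 of the ISR is known to act through short composite sites in promoters.

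The promoters of the members carry some of the short motifs through which such factors are known to act, so stretches of those that the results below return to are shown. RefSeq (GRCm38.p6) gave a promoter for 40 of the 48 proteasome genes and for 27025 genes in all, and the 250 bases before each start were searched on both strands. Members without an entry there were Psma8, Psmb1, Psmb2, Psmb7, Psmc3, Psmd3, Psmd7 and Psmg2. The motif CCGGAAG, bound by transcription factors of the ETS family, was in 12 of the 40 members (30.0%), against 7.83% of all genes. Such shares of all genes, here and below, cover the 27025 genes with a promoter. The share over the 12790 named genes tested on the arrays was not computed. The stretches below come from genes with this motif and with both AP values above, or both below, the vehicle-treated mice. They lie at chr11:101316063-101316212 on the plus strand (Psme3, the 150 bases before the start), chr14:45329697-45329757 on the plus strand (Psmc6), chr3:95042706-95042766 on the minus strand (Psmd4), chr16:95990996-95991056 on the minus strand (Psmg1), chr11:30771695-30771755 on the plus strand (Psme4) and chr14:14120957-14121017 on the minus strand (Psmd6). Each reads 5′ to 3′ in the direction of its gene, and capitals mark CCGGAAG.
Psme3: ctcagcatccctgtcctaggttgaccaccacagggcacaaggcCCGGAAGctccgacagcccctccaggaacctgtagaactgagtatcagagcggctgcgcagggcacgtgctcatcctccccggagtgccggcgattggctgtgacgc
Psmc6: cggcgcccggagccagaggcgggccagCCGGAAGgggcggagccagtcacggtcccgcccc
Psmd4: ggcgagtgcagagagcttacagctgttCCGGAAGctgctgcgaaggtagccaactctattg
Psmg1: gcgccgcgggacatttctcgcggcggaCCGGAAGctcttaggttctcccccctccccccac
Psme4: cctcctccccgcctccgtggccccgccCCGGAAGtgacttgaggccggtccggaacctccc
Psmd6: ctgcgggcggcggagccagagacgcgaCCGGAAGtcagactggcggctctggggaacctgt

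A motif of Nfe2l1 and related factors, TGACNNNGC (N is any base), was in 5 of 40 members (12.5%), against 11.5% of all genes. These were Psmb5, Psmb6, Psmc6, Psmd9 and Psmd12. The stretches shown hold it in the genes of 2 cutting subunits and in Psmc6. They lie at chr14:54618008-54618068 on the minus strand (Psmb5), chr11:70525296-70525356 on the plus strand (Psmb6) and chr14:45329574-45329634 on the plus strand (Psmc6), with the motif in capitals, which in Psmc6 is on the other strand and so reads in reverse complement.
Psmb5: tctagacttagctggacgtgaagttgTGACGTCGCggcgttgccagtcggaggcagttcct
Psmb6: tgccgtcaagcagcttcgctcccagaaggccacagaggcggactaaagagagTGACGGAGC
Psmc6: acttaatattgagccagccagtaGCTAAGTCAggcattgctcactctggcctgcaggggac

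The composite site of Atf4, TGATGNAA, was in 1 of 40 members, Psmd13 (2.5%), against 3.91% of all genes. The core of the interferon response element, GAAANNGAA, was in 3 of 40 members, Psmb3, Psmd4 and Psmd9 (7.5%), against 8.18% of all genes. No match of any of the 4 motifs shared a base with a match of another. None of the 4 was found before the start of Psmb9, which lies head to head with Tap1, the peptide transporter of antigen presentation. The 225 bases between the starts, at chr17:34187331-34187555 on the minus strand, serve as the upstream stretch of both genes and are shown in the direction of Psmb9.
Psmb9: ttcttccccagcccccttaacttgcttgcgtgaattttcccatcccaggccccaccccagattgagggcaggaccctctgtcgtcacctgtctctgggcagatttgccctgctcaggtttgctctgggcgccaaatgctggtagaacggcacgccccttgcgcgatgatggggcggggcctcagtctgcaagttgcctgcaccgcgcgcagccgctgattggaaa

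Each mouse had its own one-color array of 62976 spots. Values are log2 of the background-subtracted intensity minus the 75th percentile of the array, so 0 is the 75th percentile, and a difference of 1 is 2-fold. Levels are compared between mice for one probe, never between probes. Of the spots, 46.4 to 49.0% were well above background, and none was saturated. All 8 genes listed as brown adipocyte markers were well above background on all 4 arrays. They include Ucp1 and also Adipoq, Fabp4 and Plin1, which are not particular to brown fat. Most of the skeletal muscle markers described below were well above background on all 4 arrays as well. The ISR target Trib3 was 2.78 and 2.33 with vehicle and 6.26 and 8.01 with AP, and the ISR target Ddit3 was 2.18 and 1.86 against 3.03 and 4.22. The vehicle arrays and the AP arrays were at different positions of 1 slide, so position and treatment cannot be told apart. With 2 mice a group, an exact permutation test cannot go below a p of 0.333, and no probe of 24970 tested passed an adjusted p of 0.05 (limma, Benjamini-Hochberg). The smallest adjusted p was 0.80, while 1515 probes had an unadjusted limma p under 0.05.

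Of the 48 proteasome genes, 46 were well above background on all 4 arrays, and none of the 46 passed the adjusted threshold (limma, Benjamini-Hochberg), as for 0% of all probes. The genes that were not above background on any array were Psma8, the alpha subunit of the testis proteasome, and Psmb11, the beta subunit of the thymus proteasome. With AP, 22 of the 46 had a higher mean and 24 a lower one (51.4% of all 12790 named genes tested had a higher mean). The median log2 difference between AP and vehicle was -0.03 over the 46 genes and 0.01 over all named genes. The split into higher and lower follows the scaling: of the 43 tested genes outside the immunoproteasome, 22 were higher here, 27 with each array set to its median and 13 in the log2 table of the authors, where the median of all named genes itself moved to 0.10 and -0.15. The differences were also small: the median size regardless of sign was 0.15 for the proteasome genes and 0.24 for all named genes, and 1 proteasome gene differed by at least 1.5-fold, where 15.4% of all named genes did. Both AP values were above both vehicle values for 7 of the 46 (15.2%), against 20.1% of all named genes, and below them for 6 (13.0%), against 17.3%. Groups thus did not overlap for 13 of the 46 (28.3%), against 37.4% of all named genes. Over all probes the share was 38.3%. This order turned with normexp background correction, with 45.7% against 36.3% of all probes, and in the log2 table of the authors, with 56.5% against 43.1%. It also turned when either vehicle-treated mouse was left out, which leaves 1 mouse in that group. Before adjustment, 1 proteasome gene, Psme3, had a limma p under 0.05, where 3.78% of all named genes did with a higher and 2.26% with a lower level, 6.04% together.

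**Figure D1:**
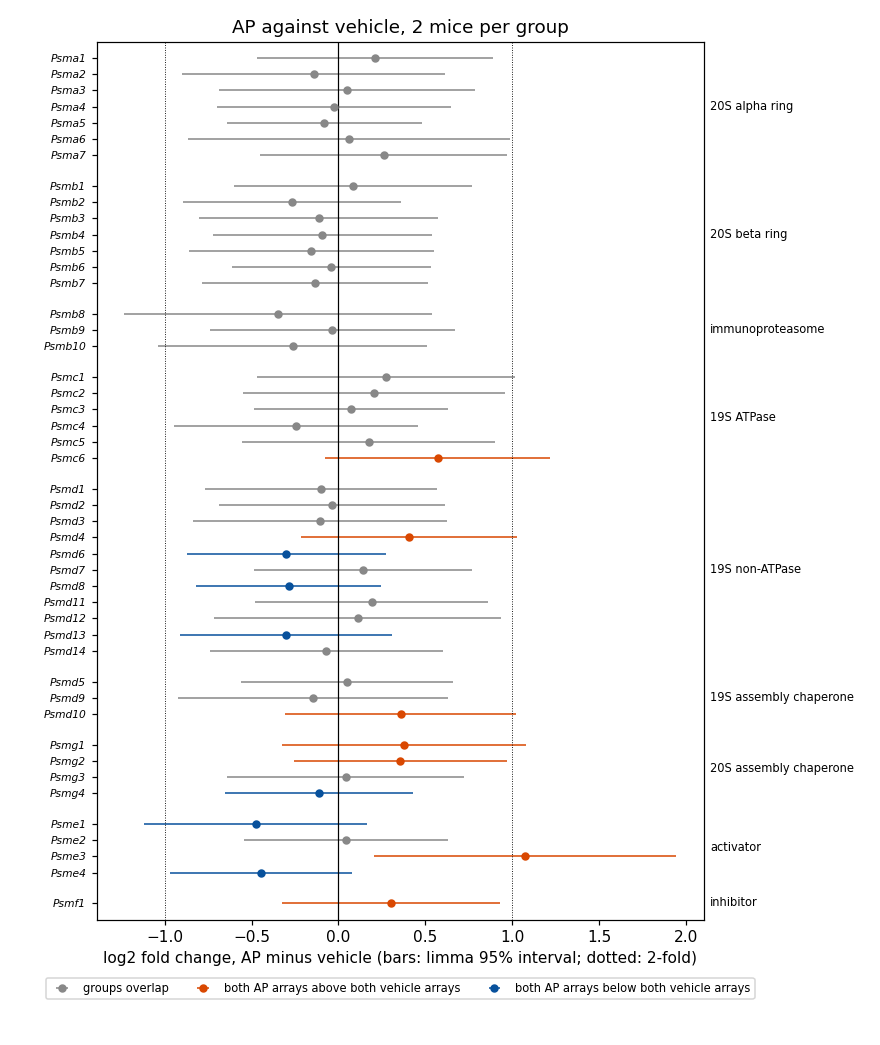
Log2 difference between AP-treated and vehicle-treated Tg mice for each of the 46 proteasome genes above background (x axis), grouped by role, with the 95% interval of limma as a bar (2 mice a group). Dotted lines mark 2-fold. All 14 intervals of the 20S core lie between -0.90 and 0.99, and Psme3 alone has an interval that leaves out 0.

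The 7 tested genes of the alpha rings lay between -0.14 (Psma2) and 0.26 (Psma7) in their log2 difference, with a median of 0.05. Of these, 4 had a higher and 3 a lower mean with AP, but 6 were higher with each array set to its median and 2 in the log2 table of the authors. The groups overlapped for every one. Psma7 read 6.07 and 5.64 with vehicle and 6.29 and 5.94 with AP. Psma6, whose promoter holds CCGGAAG as the only one of the 20S genes searched, read 5.91 and 5.05 against 5.47 and 5.61. Both AP values of Psma6 lay between the vehicle values.

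The 7 tested genes of the standard beta rings lay between -0.27 (Psmb2) and 0.09 (Psmb1), with a median of -0.11, and 6 of the 7 had a lower mean with AP (5 to 7 under the other scalings). On the probe with the higher signal of each, the groups overlapped for all 7. Psmb5, which carries the chymotrypsin-like site, read 7.99 and 7.47 with vehicle and 7.52 and 7.64 with AP, a log2 difference of -0.16 (SE 0.27). Psmb6, which carries the caspase-like site, read 7.15 and 6.89 against 6.99 and 6.97, a difference of -0.04 (SE 0.22). Psmb7, which carries the trypsin-like site, read 5.35 and 4.91 against 4.98 and 5.0, a difference of -0.13 (SE 0.25). For each of the 3 cutting subunits, both AP-treated mice lay within the range of the vehicle-treated mice on these probes. The other probe of Psmb5 read 5.68 and 5.19 with vehicle and 5.08 and 5.16 with AP, a difference of -0.32 (SE 0.26), so on that probe both AP values were below both vehicle values. On the probe with the higher signal of each of the 14 genes of the 20S core, the 95% interval of limma stayed within a 2-fold change either way, with bounds from -0.90 to 0.99, where 53.0% of all named genes had such an interval.

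The 6 ATPases of the 19S base, which unfold the substrate, had a median log2 difference of 0.19, and 5 of the 6 had a higher mean with AP (4 in the log2 table of the authors). The exception was Psmc4 at -0.25. Psmc6 read 3.30 and 2.91 with vehicle and 3.77 and 3.59 with AP, a difference of 0.57 (SE 0.24) with a 95% interval from -0.07 to 1.22. It was the only one of the 6 ATPases with both AP values above both vehicle values (16.7%, against 20.1% of all named genes). Its limma p of 0.07 before adjustment did not pass. Psmc1 and Psmc2 have 2 probes each, which gave 0.28 and 0.28 for Psmc1 and 0.20 and 0.35 for Psmc2, with overlapping groups on the probe with the higher signal.

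The 11 other genes of the 19S particle, which form its scaffold and bind and remove ubiquitin, had a median log2 difference of -0.07, with 4 higher and 7 lower (6 and 5 with each array set to its median). Psmd4, a receptor for ubiquitin chains, read 6.55 and 6.21 with vehicle and 6.88 and 6.69 with AP, a difference of 0.41 (SE 0.24). It was the only one of the 11 with both AP values above both vehicle values (9.1%, against 20.1% of all named genes). For 3 of the 11 (27.3%, against 17.3% of all named genes), all scaffold subunits of the 19S lid, both AP values were below both vehicle values. Psmd7, Psmd11 and Psmd12, also of the lid, had a higher mean with AP, by 0.14, 0.19 and 0.11, with overlapping groups. Psmd3, also of the lid, differed by -0.10 with overlapping groups. Psmd13 read 4.28 and 3.92 against 3.81 and 3.78, a difference of -0.30 (SE 0.23). Psmd6 read 3.65 and 3.46 against 3.16 and 3.34, a difference of -0.30 (SE 0.22). Psmd8 read 5.21 and 5.23 against 5.0 and 4.88, a difference of -0.29 (SE 0.20). These 3 differences were about as large as their standard errors or slightly larger, and each 95% interval held 0. Psmd14, the lid enzyme that cuts ubiquitin chains off the substrate, differed by -0.07 (SE 0.25), and Psmd2 and Psmd1, the largest scaffold subunits of the base, by -0.04 and -0.10. Over all 17 genes of the 19S particle, 14 had an interval within 2-fold.

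Assembly chaperones hold subunits in place while the particles form and are absent from the finished proteasome. Among the 3 chaperones of the 19S base, Psmd10 (gankyrin) read 1.38 and 0.91 with vehicle and 1.51 and 1.49 with AP, a difference of 0.36 (SE 0.25). The other probe of Psmd10 gave -0.05, with overlapping groups, so the probes of this gene disagree in sign. Psmd5 differed by 0.05 and Psmd9 by -0.15, with overlapping groups.

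Psmg1 and Psmg2, which pair to start the alpha ring, each had both AP values above both vehicle values (50% of the 4 chaperones of the 20S core, against 20.1% of all named genes). Psmg1 read 5.03 and 4.57 against 5.31 and 5.05, a difference of 0.37 (SE 0.27), and its other probe gave 0.41. Psmg2 read 2.63 and 2.32 against 2.74 and 2.93, a difference of 0.36 (SE 0.23). For Psmg1 the lower AP value was just above the higher vehicle value. Of their partner pair, Psmg3 differed by 0.04 with overlapping groups. Psmg4 read 1.49 and 1.55 against 1.33 and 1.48, a difference of -0.11 (SE 0.20) with both AP values below (25% of the 4, against 17.3% of all named genes). Each of these intervals held 0.

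The activators that can dock on the 20S core in place of the 19S particle spanned the widest range of any proteasome group, from -0.48 to 1.08. Of the 4 tested, 25% had both AP values above both vehicle values and 50% had both below, against 20.1% and 17.3% of all named genes. Psme3, the nuclear activator PA28γ, read 4.01 and 3.85 with vehicle (mean 3.93 ± 0.11, SD, n = 2) and 5.39 and 4.62 with AP (5.01 ± 0.55). Both AP values were above both vehicle values, and the AP-treated mice were also further apart from each other than the vehicle-treated mice were. The log2 difference was 1.08 (SE 0.33), or 2.11-fold, with a 95% interval from 0.21 to 1.94. Its unadjusted limma p was 0.025 and its adjusted p 0.80 (Benjamini-Hochberg over all probes), so it did not pass. Without AP replicate 1, the higher AP-treated mouse, the difference was 0.69, and without AP replicate 2 it was 1.46.

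Psme1 and Psme2 encode the paired subunits of the activator PA28αβ, which is known to be induced by interferon together with the immunoproteasome. Psme1 read 4.71 and 4.92 with vehicle and 4.15 and 4.53 with AP, a difference of -0.48 (SE 0.24). Psme2 read 6.87 and 6.57 against 6.73 and 6.80, a difference of 0.04 (SE 0.22). The groups were apart for Psme1 and overlapped for Psme2, although the products work as one complex. Psme4, the activator PA200, read 0.85 and 0.85 with vehicle and 0.40 and 0.40 with AP, a difference of -0.45 (SE 0.20) with an interval from -0.97 to 0.08. Its replicates read the same to 2 decimals in both groups, and limma, which shares the spread between probes, gave it an unadjusted p of 0.08. The other probe of Psme4 gave -0.24, with AP values of -1.10 and -0.35 against -0.51 and -0.46, so its groups overlapped. Psmf1, the proteasome inhibitor PI31, read 0.49 and 0.10 against 0.57 and 0.63, a difference of 0.30 (SE 0.24) with both AP values above.

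**Figure D2:**
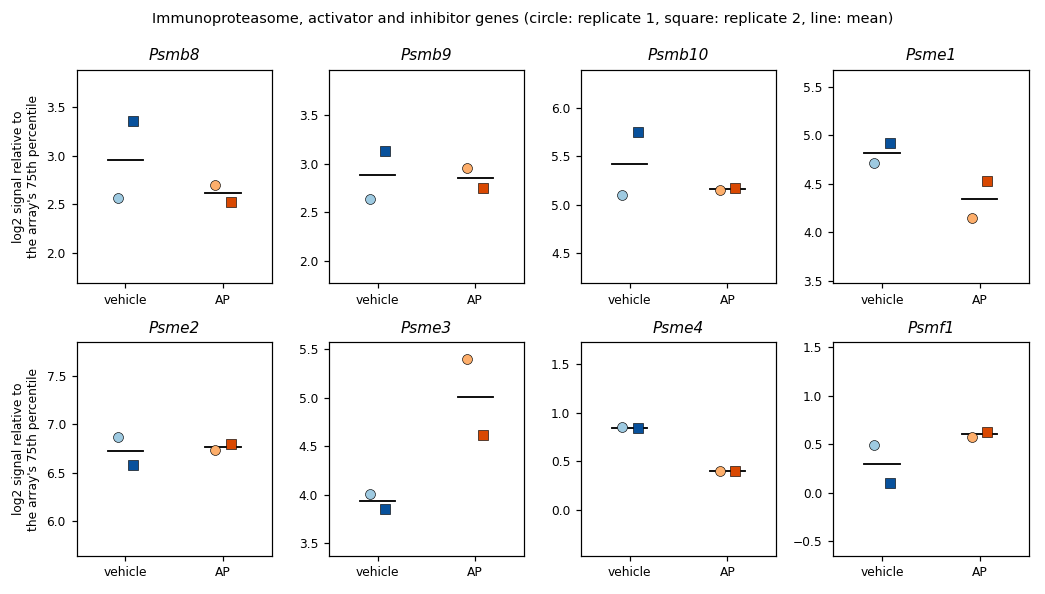
Log2 signal minus the 75th percentile of its array (y axis, each panel spanning the same range of log2 units) for the immunoproteasome, activator and inhibitor genes in the 2 vehicle-treated and 2 AP-treated Tg mice. Circles are replicate 1, squares replicate 2 and lines group means. Psme3 is higher in both AP-treated mice, at 5.39 and 4.62 against 4.01 and 3.85, while for Psmb8, Psmb9 and Psmb10 the highest value is that of vehicle replicate 2.

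The immunoproteasome genes encode the inducible cutting subunits. Psmb8, which takes the place of Psmb5, read 2.56 and 3.36 with vehicle and 2.70 and 2.53 with AP, a difference of -0.35 (SE 0.33). Psmb9, which takes the place of Psmb6, read 2.64 and 3.13 against 2.96 and 2.75, a difference of -0.03 (SE 0.27). Psmb10, which takes the place of Psmb7, read 5.10 and 5.75 against 5.15 and 5.17, a difference of -0.26 (SE 0.29). All 3 had a lower mean with AP (2 of 3 with each array set to its median), with a median of -0.26, but the groups overlapped for each. The value of vehicle replicate 2 was the highest of the 4 mice for each of the 3, as for 23.8% of all named genes. Without vehicle replicate 2 the median was 0.06, and without vehicle replicate 1 it was -0.59. Only 1 of the 3 intervals stayed within 2-fold, and they ran from -1.23 to 0.67.

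Leukocyte markers were also highest in vehicle replicate 2, and leukocytes are known to carry much of the immunoproteasome. Of 11 leukocyte markers listed, 7 could be tested, and all 7 were highest in vehicle replicate 2, against 23.8% of all named genes. The summed signal of these 7, in units of the 75th percentile of the array, was 31.3 and 108 with vehicle and 37.9 and 35.8 with AP. Among those too dim to be tested were Cd79a, Ms4a1 and Cd3g. Among the 7, Coro1a differed by -1.05 between AP and vehicle, Cd74 by -0.72 and Cd79b by -0.66, with overlapping groups. Macrophage markers summed to 32.8 and 40.8 with vehicle and to 24.9 and 25.3 with AP. Of the 7 tested, 5 were highest in vehicle replicate 2, against the same 23.8%. Itgam (-0.88), Lyz2 (-0.56) and Fcgr1 (-0.47) had the largest differences of the 7. Itgam read 4.21 and 3.82 with vehicle and 2.85 and 3.42 with AP, so it was highest in vehicle replicate 1. It was the only one of the 7 with both AP values below both vehicle values (14.3%, against 17.3% of all named genes). Its unadjusted limma p was 0.037 and its adjusted p 0.80. The groups overlapped for Lyz2 and Fcgr1. The part of these markers in the immunoproteasome values was not tested. In whole tissue, fewer cells of a type and less RNA per cell cannot be told apart.

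Genes that interferon and antigen presentation share with the immunoproteasome had a median size of the log2 difference of 0.22, against 0.24 for all named genes. Of 10 tested, 3 had a higher and 7 a lower mean with AP, with a median of -0.16 (6 to 8 lower under the other scalings), and none had an unadjusted limma p under 0.05. B2m, the light chain of MHC class I, read 6.94 and 7.67 with vehicle and 6.81 and 6.51 with AP, a difference of -0.64 (SE 0.33). Isg15, a ubiquitin-like protein induced by interferon, read 3.59 and 4.11 against 3.14 and 3.43, a difference of -0.56 (SE 0.28). For these 2 genes and for Tapbp, both AP values were below both vehicle values (30% of the 10, against 17.3% of all named genes). Both were above for 0 of the 10, against 20.1% of all named genes. Tap1, which shares the upstream stretch of Psmb9 shown above, read -1.14 and -1.04 against -0.26 and -1.27, a difference of 0.32 (SE 0.39). Its highest value was that of AP replicate 1, whereas that of Psmb9 was in vehicle replicate 2.

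The spread between mice of 1 group was set beside the difference between the groups. Of the 43 tested genes outside the immunoproteasome, only 4 were higher in vehicle replicate 2 than in vehicle replicate 1, where 40.4% of all named genes were. Under the other scalings, 3 to 10 of the 43 were (23.3% in the log2 table of the authors, against 64.4% of all named genes there). The median log2 difference of replicate 2 from replicate 1 was -0.39 for these genes and -0.10 for all named genes, and -0.13 and 0.15 in the log2 table of the authors. For the 20S core it was -0.47, and 14 of 14 genes were lower in vehicle replicate 2 (12 in the log2 table of the authors). Of the 14, 13 were highest in vehicle replicate 1, a share that was not computed over all named genes. It was -0.39 for the 19S particle, with 2 of 17 genes higher in vehicle replicate 2. The 3 immunoproteasome genes went the other way, by a median of 0.65. Of the activators, Psme1 alone was higher in vehicle replicate 2 (3 of 4 in the log2 table of the authors).

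Vehicle replicate 2 was the lowest of the 4 mice for 29 of the 43 genes (67.4%), against 35.9% of all named genes (12 of 43, or 27.9%, against 13.8% in the log2 table of the authors). Vehicle replicate 1 was the highest for 25 of the 43, again with no share computed over all named genes. The median size of the difference between the vehicle-treated mice was 0.39, that between the AP-treated mice 0.18 and that between the groups 0.15, which is a difference between means of 2 mice. For all named genes, the same values were 0.32, 0.27 and 0.24. The groups differed by less than the vehicle-treated mice did from each other for 31 of the 43 genes (72.1%), against 59.9% of all named genes. The median difference between AP and vehicle over the 43 genes was 0.04 with all mice, -0.17 without vehicle replicate 2 and 0.18 without vehicle replicate 1. Of the 46 tested genes, 17 kept the sign of their difference when each mouse was left out in turn. The same share over all named genes was not computed.

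Marker lists also differed between the vehicle-treated mice. Of the brown adipocyte markers, 6 of 8 were lowest in vehicle replicate 2, and their summed signal was 7524 and 4963 with vehicle and 6059 and 6958 with AP. All 8 skeletal muscle markers were lowest in vehicle replicate 1 and highest in vehicle replicate 2 (23.8% of all named genes were highest there). Their summed signals were 70.1 and 645 with vehicle and 435 and 250 with AP. Among the brown adipocyte markers, Elovl3 read 6.08 and -1.07 with vehicle and 3.52 and 5.76 with AP (difference 2.13), and Plin1 and Adipoq differed by 0.33 and -0.30. Among the muscle markers, Myh4 read 3.84 and 7.83 against 7.58 and 6.63, and Acta1 and Tnnt3 also had their lowest value in vehicle replicate 1. The part of these markers in the proteasome values was not tested.

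**Figure D3:**
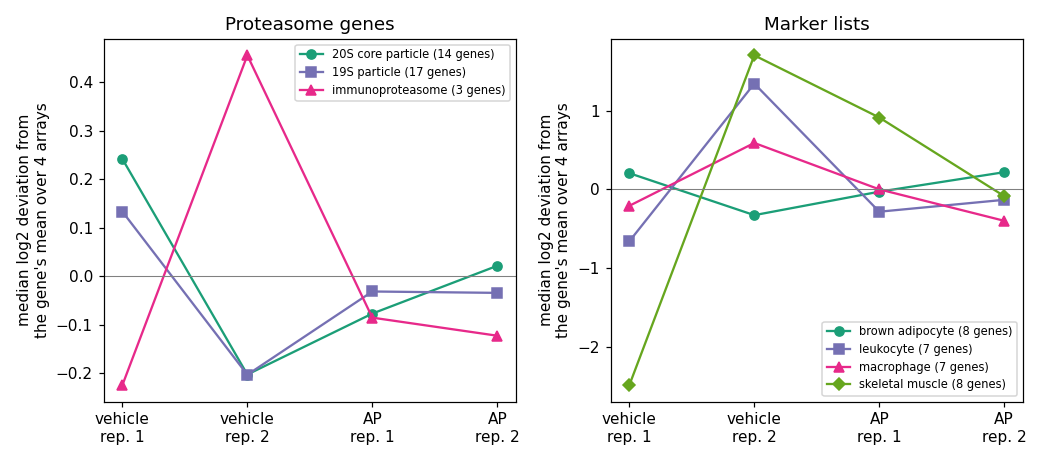
Median deviation of each gene group from the mean of each gene over the 4 arrays (y axis, log2 units), for each Tg mouse (x axis); the lines only join the points of one group. On the left, the 20S core (14 genes) and the 19S particle (17 genes) are lowest in vehicle replicate 2 while the immunoproteasome (3 genes) is highest there, and on the right, leukocyte and muscle markers peak and brown adipocyte markers are lowest in the same mouse.

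**Figure D4:**
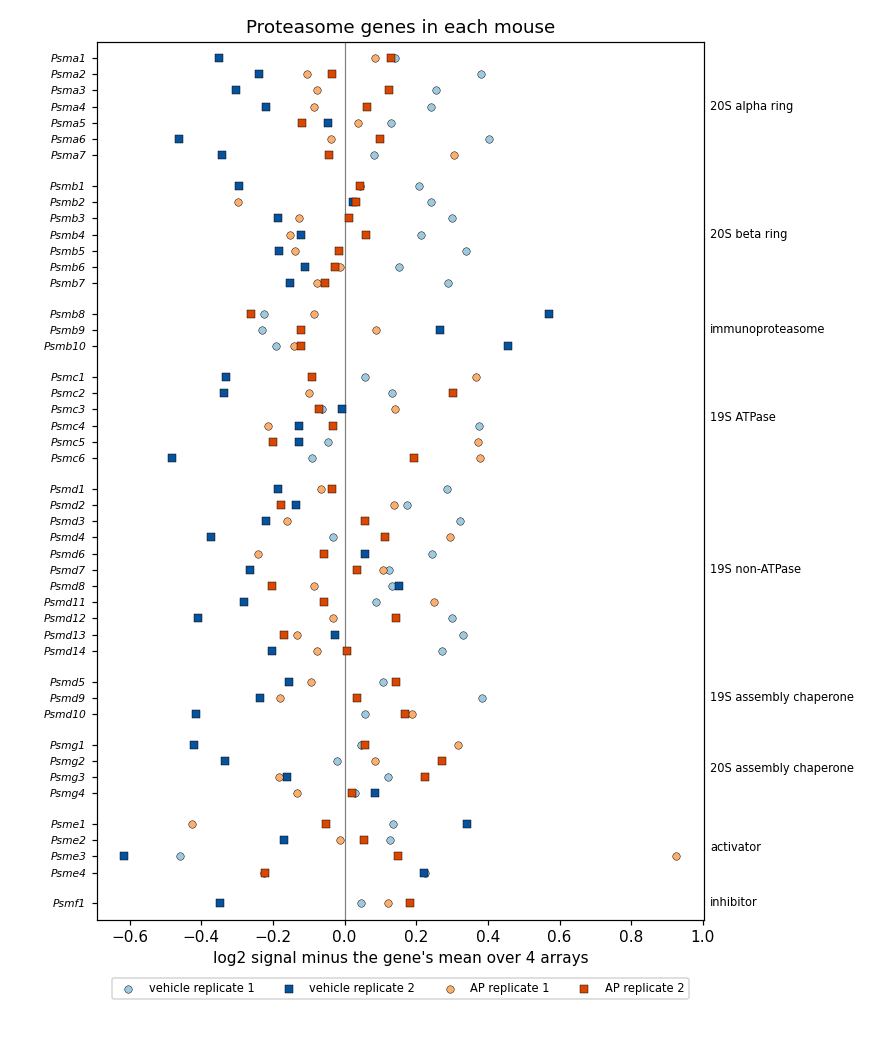
Log2 signal of each of the 46 proteasome genes in each Tg mouse minus the mean of that gene over the 4 mice (x axis), grouped by role. Dark blue squares (vehicle replicate 2) lie at the low end for 29 of the 43 genes outside the immunoproteasome and at the high end for all 3 immunoproteasome genes.

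Where a gene had 2 probes, these mostly had the same sign. Of the 11 genes with 2 probes, 9 did, and the median difference between the probes of a gene was 0.06. The exceptions were Psmd10, described above, and Psmd12, a scaffold subunit of the lid, with 0.11 and -0.02. The genes that share only the name gave -0.32 (Psmc3ip) and -0.09 (Psme3ip1).

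Genes that work with the proteasome or control its genes were listed by function. Of 32 listed, 30 were tested, 18 had a higher and 12 a lower mean with AP (10 and 20 in the log2 table of the authors), the median was 0.09, and none had an unadjusted limma p under 0.05. Both AP values were above both vehicle values for 5 of the 30 (16.7%) and below for 4 (13.3%), against 20.1% and 17.3% of all named genes. Nfe2l1, the factor that raises proteasome gene expression when proteasome activity is short, read 0.93 and 0.41 with vehicle and 1.18 and 1.33 with AP, a difference of 0.59 (SE 0.27). Nfe2l2, the related factor of the oxidative stress response, read 3.53 and 3.36 against 3.52 and 4.22, a difference of 0.43 (SE 0.31), with AP replicate 1 level with the vehicle values. The groups were apart for Nfe2l1 and overlapped for Nfe2l2.

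Of the subunits and assembly factors that lack the Psm name, none had groups apart other than Fbxo7, a ubiquitin ligase subunit that binds the inhibitor Psmf1. Fbxo7 read 3.65 and 3.20 with vehicle and 3.96 and 3.87 with AP, a difference of 0.49 (SE 0.25). Sem1, a small subunit of the lid, read 6.99 and 6.45 against 6.96 and 7.11, a difference of 0.31 (SE 0.27). Adrm1, a ubiquitin receptor of the 19S particle, differed by -0.03 (SE 0.22), and Pomp, the chaperone of the beta rings, by -0.07 (SE 0.26). Uchl5, the deubiquitinase that Adrm1 binds, read 3.01 and 2.52 against 3.43 and 3.15, a difference of 0.52 (SE 0.27) with the groups apart. Uba1, the main enzyme that activates ubiquitin, read 6.18 and 6.19 against 5.83 and 5.91, a difference of -0.32 (SE 0.20) with the groups apart the other way. The 4 ubiquitin genes tested lay between -0.07 and 0.14.

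The promoter motifs shown above were set beside these differences as a description. Of the 12 genes with CCGGAAG, 9 had a higher mean with AP (51.4% of all named genes did), with a median of 0.20. The 27 tested genes with a promoter but without the motif had a median of -0.08. Without vehicle replicate 2, Psma6, Psmd12 and Psmc2 of the 9 turned to -0.37, -0.24 and -0.03. Without vehicle replicate 1, Psmd2, which holds the motif and was lower, turned to 0.12. These counts were made with the main scaling only. Of the 12, 8 belong to the 19S particle and 1 to the 20S core. Within the 19S particle, 6 of the 8 genes with the motif had a higher mean with AP, with a median of 0.20, and 1 of the 6 genes with a promoter but without it did, with a median of -0.17. These values were looked at after the differences were known, each group ranged over both signs (from -0.30 to 0.57 with the motif and from -0.30 to 0.17 without), and no test was made. Psme3, Psmc6, Psmd4 and Psmg1 hold the motif and had both AP values above, and Psme4 and Psmd6 hold it and had both below. Of all named genes, 20.1% had both above and 17.3% had both below. The 5 genes with TGACNNNGC had a median of -0.04, with 2 higher, and the 34 tested genes with a promoter but without it a median of -0.03. Psmd13, with the composite site, differed by -0.30.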

How the data were processed

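The authors extracted 4 one-color scans with Agilent Feature Extraction 10.7.1.1 and deposited the intensity of each spot, background-subtracted and not normalized between arrays, and a table of log2 values whose scaling and centring are not given in the sources used here. Differences between arrays in that log2 table, deposited by the authors, correlated with those of the intensities with a lowest r of 0.999 over 29061 probes, and its column medians were -0.31, -0.17, -0.44 and -0.32. It served as an alternative.

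The processed intensity was put on the log2 scale and each array was set to its 75th percentile. Control and outlier spots were left out and spots of a probe averaged. A probe entered the test where 1 group or both had it well above background on both arrays. Of 55681 probes, 26582 were named through a RefSeq table (GRCm38.p6, names only, since the design is of mm9). AP was set against vehicle in limma 3.58.1 (lmFit, eBayes, R 4.3.3), with Benjamini-Hochberg adjustment at 0.05 over 24970 probes. In simulated data, the test recovered 0 of 67 probes changed by 1 log2 unit, 0 of 67 changed by 2 and 51 of 66 changed by 4, with 1 false call. The lack of adjusted calls therefore cannot tell whether changes of 1 or 2 log2 units were present. The measured data were harder than the simulated ones. Trib3 differed by 4.57 (SE 0.63) and still had an adjusted p of 0.80 (limma, Benjamini-Hochberg). Changes of 4 log2 units could thus also go without a call. A gene was read from its probe with the highest mean signal.

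The members, lists and motifs were chosen with earlier results of these data known. Values are given for the immunoproteasome, activators, inhibitor, members with an unadjusted p under 0.05, the 5 largest positive and negative differences with groups apart, 5 partner genes and the 3 largest differences of other lists. Other genes named, among them Psma6, Psma7, Psmb5, Psmb6, Psmb7, Psmg4, Uba1 and Tapbp, were named after their values were seen. Replicate arrays correlated at 0.972 (vehicle) and 0.981 (AP). Nothing states that replicate numbers pair the mice, and p values cover the spread between these mice only. The alternatives were normexp (offset 50), quantile or median scaling, 2 filters, a variance trend, a replicate block, leaving out each mouse, averaging the probes of a gene, the authors' log2 table and the methods' t-test.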

Additional observations from a re-analysis of the deposited data

How the results depend on the processing

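In every alternative run, 0 probes and 0 proteasome genes passed the adjusted threshold. The count of proteasome genes with an unadjusted p under 0.05 was 1 (Psme3), and it was 3 with normexp (also Psmd13 and Psmd4), 2 with a variance trend (also Psmc6), 2 with the authors' table (also Psme4) and 2 with the methods' t-test (Psme4 and Psmd8 instead of Psme3). These are 6.52, 4.35, 4.35 and 4.35% of the members, against 6.41, 5.95, 7.35 and 5.92% of all probes in the same settings. Leaving out each mouse gave 0 to 1, and 1 only without AP replicate 2. Psme3 ranged from 0.69 to 1.46 when a mouse was left out and from 0.90 to 1.17 otherwise. The count of genes with groups apart, 13 (7 higher, 6 lower), was 21 with normexp (8 and 13), 16 with quantile scaling (8 and 8), 11 with the median of each array (7 and 4) and 26 with the authors' table (7 and 19), where the median of all probes moved from -0.01 to -0.17. The shares of members apart were 45.7, 34.8, 23.9 and 56.5%, against 36.3, 38.3, 36.2 and 43.1% of all probes, so with normexp and the authors' table members were apart more often than all probes and with the other 2 less often, with no test of the difference. With a single mouse in a group it was 21 to 38 and apart more easily, as for 65.7 to 72.9% of all probes (members 82.6 and 80.4% without a vehicle-treated mouse, 45.7 and 47.8% without an AP-treated one). Deviations of same-numbered mice correlated at -0.13. With 1 mouse per number and group, this cannot show whether the numbers pair the mice. A replicate block gave 0 adjusted calls and 1 proteasome gene unadjusted, with 1227 probes of any kind at an unadjusted limma p under 0.05 in place of 1515. The count of 13 genes apart does not depend on the block.

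The median of the genes outside the immunoproteasome, 0.04, was -0.081 with normexp and -0.12 with the authors' table, and -0.17 to 0.18 when a mouse was left out. That of the immunoproteasome ran from -0.59 to 0.06. These signs turned. When a mouse was left out, Psmb8 ran from -0.74 to 0.051, Psmb9 from -0.28 to 0.21, Psmb10 from -0.59 to 0.062 and Psme2 from -0.11 to 0.19, each turned without vehicle replicate 2. Pomp ran from -0.32 to 0.18 and Adrm1 from -0.15 to 0.088, both turned without vehicle replicate 1. Without AP replicate 2, Psmb9, Pomp and Adrm1 were 0.069, 0.0039 and 0.077. With the median of each array, they were 0.057, 0.020 and 0.062. Psme2 was -0.081 with normexp and -0.12 with the authors' table. The cause of these changes was not tested. Slide and scan could not be a block, as all arrays shared 1 of each. The number of arrays limits the precision.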
